A study of Mus musculus with 13 samples.

Results

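Cells sorted from the brains of older adult and early postnatal mice were compared: the 4 libraries of older adults (titled P310, about 10 months, with the age labels P306, P307, P308 and P308) and the 3 libraries of the early postnatal brain (titled P12, 12 days). The 7 libraries are all those of these ages among the 13 of the series. All mice were wild-type C57BL/6, and the labels name no transgene or agent in any group. Cells were enriched on magnetic beads that carry an antibody to PDGFRα, a surface receptor of oligodendrocyte precursor cells (OPCs), and total RNA was sequenced with a stranded kit for very small inputs. Beads that remove myelin were used at P80 and P310 but not at E16 or P12, so that bead use and age cannot be told apart in this comparison. P12 replicates 2 and 3 were near copies: over 16120 protein-coding genes the chi-square of their counts, divided by its degrees of freedom, was 2.34, against 16.6 to 179 in the 14 other replicate pairs of the series. They were summed and counted as 1 sample, which left n = 2 at P12 and n = 4 at P310. P-values of the main test set a change against the spread between samples of the same age, estimated over all 4 ages of the series. The sex of the mice is not in the labels.

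OPCs are the dividing, migrating glia that give rise to oligodendrocytes, the cells that wrap axons in myelin. In the rodent brain most myelin is laid down in the first postnatal weeks, when precursors are numerous and cycle fast, whereas in the adult they divide slowly and persist as a standing population. The second postnatal week is also a time of vessel growth, astrocyte maturation and late neuronal migration in the same tissue. PDGFRα is carried by OPCs and also by fibroblasts of the vessel wall and meninges, and a magnetic sort enriches cells without making them pure.

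Total counts were 14613236, 17590193 and 25810455 in the P12 libraries and 8669521 to 14420096 in the P310 libraries, in which 3 counts correspond to 0.208 to 0.346 CPM (counts scaled to a common library size). Mitochondrial transcripts took 4.44% to 10.8% of the counts at P12 and 18.3% to 34.4% at P310. Below, levels are CPM scaled by the trimmed mean of M values (TMM), and sample values are given in the order P12 replicate 1, P12 sum of replicates 2 and 3, then P310 replicates 1, 2, 3 and 4. Pdgfra itself (ENSMUSG00000029231, GRCm38 chromosome 5, 75152292 to 75198215) stood at 46.7 and 93.6 CPM at P12 and at 68.8, 15.8, 13.7 and 24.6 CPM at P310. The groups overlapped, and the log2 change of -1.20 did not pass the test (standard error, SE, 0.60, adjusted p = 0.475). Without P310 replicate 1 the change was -1.96 (adjusted p = 0.0359). Cspg4, the proteoglycan NG2 of OPCs and pericytes, was measured at 54.2 and 64.9 CPM at P12 and at 54.7 to 82.7 CPM at P310 (log2 change 0.17, adjusted p = 0.916). The transcription factor gene Olig2 was at 12.6 and 15.8 CPM at P12 and at 0.132, 12.5, 2.41 and 0.595 CPM at P310, so that this defining marker of the lineage was close to the limit of 3 counts in P310 replicates 1 and 4. The myelin genes separated single libraries and not ages. Mbp, which encodes myelin basic protein, was measured at 3398 and 115 CPM at P12 and at 319, 39223, 65.4 and 61.4 CPM at P310. Summed over 26 myelin genes the level was 9089 CPM in P12 replicate 1 against 718 in the other P12 sample, and 68846 CPM in P310 replicate 2 against 639 to 1517 in the other 3. Both myelin-rich libraries were therefore left out together in a second fit, in which P12 has 1 sample that is assumed to vary like the other ages. A call is said to hold where it was made in the fit of all samples and again, in the same direction, in this second fit.

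**Figure D1:**
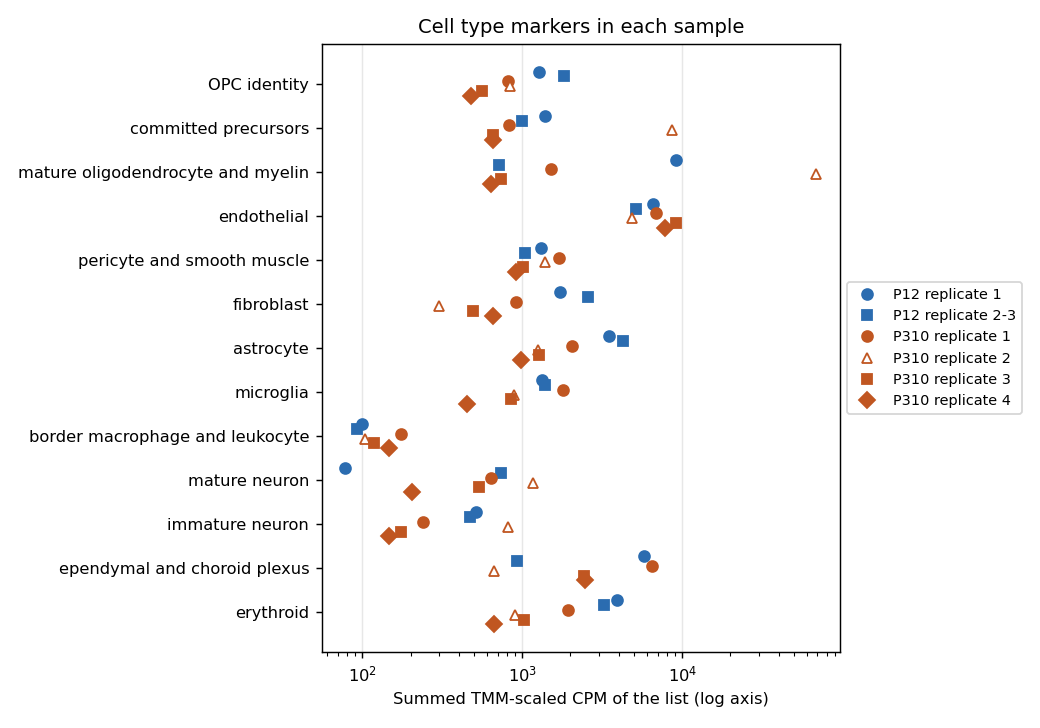
Summed CPM of each list of cell type markers (vertical) in each P12 and P310 sample, on a log scale (horizontal), with 1 symbol per sample. The myelin sum of P310 replicate 2 (68846 CPM) and that of P12 replicate 1 (9089 CPM) stand apart, while astrocyte markers are higher in both P12 samples (3487 and 4233 CPM) than in all 4 P310 samples (978 to 2058 CPM).

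Markers of other cells were present at both ages. Endothelial markers summed to 6546 and 5146 CPM at P12 and to 4869 to 9196 CPM at P310, and pericyte and smooth muscle markers to 1309 and 1038 CPM and to 918 to 1697 CPM, with overlap in both lists. OPC markers summed to 1269 and 1830 CPM at P12 and to 476 to 833 CPM at P310, and fibroblast markers to 1723 and 2581 CPM and to 301 to 911 CPM, without overlap. Ependymal and choroid plexus markers ranged from 920 to 5764 CPM at P12 and from 662 to 6486 CPM at P310. In bulk RNA, fewer cells of a type and less RNA per cell cannot be told apart.

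Of 21170 genes tested, 531 were called (2.51%), of which 151 were higher at P310 (0.713%) and 380 lower (1.79%; adjusted p under 0.05, edgeR quasi-likelihood test on all 4 ages, Benjamini-Hochberg adjustment). In each of the 531 the 4 P310 samples lay on 1 side of both P12 samples, as they did in 8.28% (above) and 11.6% (below) of all genes tested. Without overlap, leaving out samples can hardly reverse the sign of a call, so that a sign kept below is no separate support. DESeq2 called 476 and 589, so that rises made up 44.7% of its calls against 28.4% in edgeR. The median log2 change over all genes tested was 0.03, close to 0. The shares of 0.713% higher and 1.79% lower are the base beside which the calls in each list below are to be read. When both myelin-rich libraries were left out, 59 of 22429 genes were called higher (0.263%) and 188 lower (0.838%). Of the first set of calls, 44 rises (0.208% of genes tested) and 150 falls (0.709%) held, and all 531 kept their sign. The calls that were lost had smaller median changes: the 107 lost rises had a median log2 change of 1.94 and the 44 that held 2.29, while the 230 lost falls had a median of -1.79 and the 150 that held -3.02. Among those that held the medians moved to 2.24 and -2.70 without the pair of libraries. Leaving out P12 replicate 1 alone left 31 higher and 127 lower, and leaving out P310 replicate 2 alone gave 248 higher and 435 lower. Without P12 replicate 1, as without both, P12 was left with 1 sample.

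**Figure D2:**
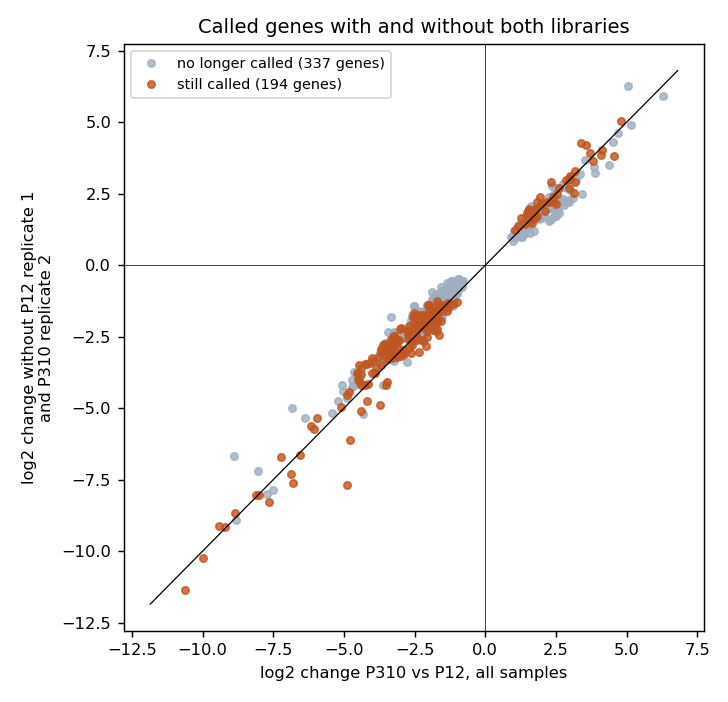
Log2 change from P12 to P310 of each called gene in the fit of all samples (horizontal) and in the fit without P12 replicate 1 and P310 replicate 2 (vertical), with the 194 genes still called and the 337 no longer called in different colours. All 531 points lie where both changes have the same sign. This was largely fixed beforehand, since the P12 and P310 samples did not overlap in any called gene.

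The 8 largest rises among the calls that held were those of Xdh, Fmo2, Ppl, Sncg and 4 immune genes. Xdh (ENSMUSG00000024066, chromosome 17, 73883908 to 73950182), whose product xanthine dehydrogenase makes uric acid in purine breakdown, was measured at 4.35 and 3.58 CPM at P12 and at 112, 90.2, 123 and 118 CPM at P310. This is a log2 change of 4.81 (SE 0.48, adjusted p = 7.18e-05). The P80 samples were at 111 ± 26.1 CPM (SD, n = 3), a mean within the range of the P310 samples. Fmo2, a flavin-containing monooxygenase, went from 0.0622 and 1.70 CPM to 16.2, 19.9, 32.1 and 23.03 CPM (log2 change 4.56, SE 0.89, adjusted p = 0.0133). Ppl encodes periplakin, a linker of the cytoskeleton to the membrane, and was measured at 3.17 and 3.94 CPM against 38.0, 61.4, 72.4 and 81.3 CPM (log2 change 4.14, SE 0.60). Unlike Xdh, Ppl had at P80 a mean of 20.4 ± 6.14 CPM (SD, n = 3), below all 4 P310 samples. Sncg, which encodes γ-synuclein, was at 4.48 and 1.46 CPM against 28.6, 37.3, 30.7 and 26.0 CPM (log2 change 3.39, SE 0.50). The other 4 of the 8 largest rises were H2-Q6, Nlrc5, Tgtp2 and Oas2, genes of the interferon response and of antigen presentation that are described with their lists. Without P12 replicate 1 alone Fmo2 had a log2 change of 3.74 (adjusted p = 0.0578), and the other 7 were called with any single sample left out.

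The 8 largest falls were those of Aspm, Tpx2, Aplnr, Gm10800 and 4 histone genes. Aspm (ENSMUSG00000033952, chromosome 1, 139454772 to 139494091), whose product organises the spindle poles of dividing progenitors, was measured at 25.8 and 21.1 CPM at P12 and at 0, 0, 0.0891 and 0.425 CPM at P310 (log2 change -7.24, SE 0.70, adjusted p = 7.18e-05). All 4 P310 values were at the level of a few counts. Aplnr (ENSMUSG00000044338, chromosome 2, 85136225 to 85139923), the receptor for apelin on growing vessels, was at 174 and 123 CPM against 0.264, 0.770, 2.94 and 3.91 CPM (log2 change -6.17, SE 0.68, adjusted p = 4.13e-04). At P80 it was measured at 7.57 ± 2.27 CPM (SD, n = 3) and at E16 at 0.915 ± 0.481 CPM, so that among the 4 ages P12 had the highest mean. Endothelial markers summed to 53.7 to 83.3 CPM in the E16 samples, against 6546 and 5146 CPM at P12. Fewer vessel cells and a lower level per cell cannot be told apart at E16. The spindle assembly gene Tpx2 was at 34.5 and 26.3 CPM against 1.85, 0.330, 1.34 and 1.79 CPM (log2 change -4.51). Of the 8, 4 were histone genes of the chromosome 13 cluster, Hist1h3b, Hist1h2bn, Hist1h2af and Hist1h3d, with log2 changes from -4.52 to -4.41. The predicted gene Gm10800 was at 1.74 and 34.6 CPM at P12 and at 0.0850 to 0.264 CPM at P310. Its fall rests on the summed P12 sample, without which the log2 change was -3.40 (adjusted p = 0.432).

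**Figure D3:**
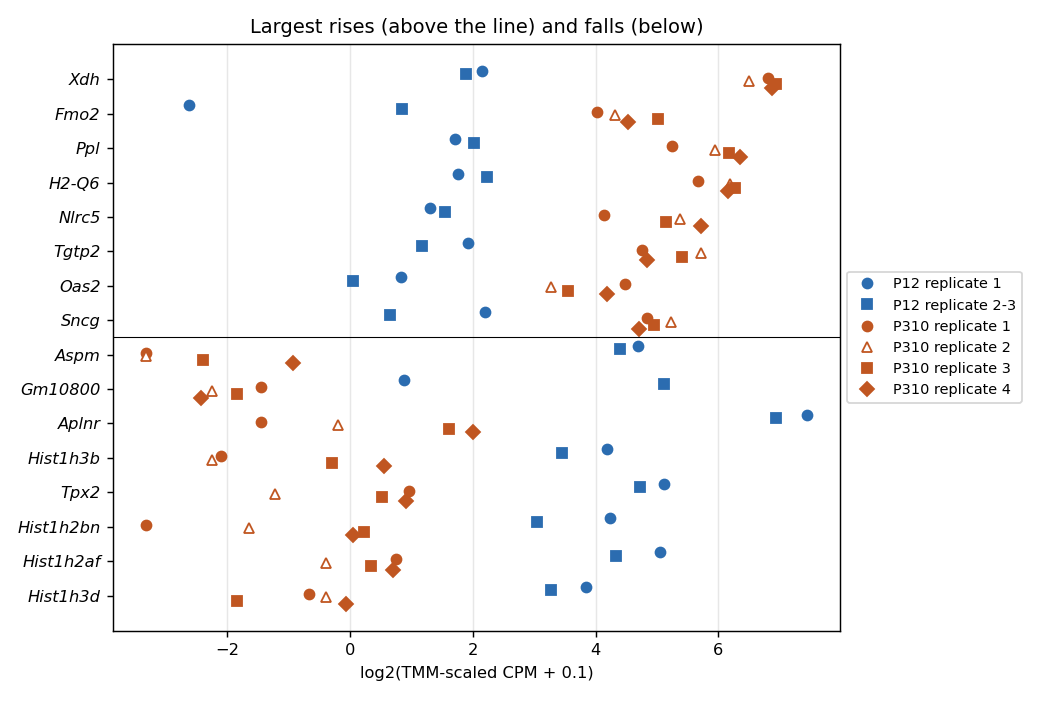
Level of the 8 genes with the largest rises (upper block) and the 8 with the largest falls (lower block) in each sample, as log2 of TMM-scaled CPM plus 0.1 (horizontal), with 1 symbol per sample. The 16 genes were chosen among those whose P12 and P310 samples do not overlap, so that their separation is fixed by the rule. Gm10800 shows a wide gap between its P12 values of 1.74 and 34.6 CPM.

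Part of the genes of the interferon response and of MHC class I antigen presentation were higher at P310. Interferons signal through transcription factors of the STAT and IRF families to switch on genes that detect or block viruses, and interferon-γ also raises the immunity-related GTPases and the machinery that loads peptides on MHC class I molecules. The interferon response, the interferon-inducible GTPases and MHC class I presentation hold 70 of the 21170 genes tested. Of these 70, 27 were called higher and none lower, against 0.713% of all genes higher, and 67 of 70 had a positive log2 change. Of the 44 rises that held, 13 (29.5%) were in these lists.

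In the interferon response list 11 of 30 genes rose, all 30 had a positive log2 change and the median was 1.60 (1.68 without both myelin-rich libraries). The summed level was 338 and 319 CPM at P12 and 874, 715, 947 and 806 CPM at P310. Oas2, an RNA sensor that activates RNase L, was measured at 1.68 and 0.933 CPM against 22.3, 9.57, 11.7 and 18.0 CPM (log2 change 3.58, SE 0.55, adjusted p = 0.00211), and it was the only gene of the list that held. The antiviral effector gene Ifit3 was at 2.18 and 3.48 CPM against 44.5, 22.1, 35.1 and 15.98 CPM (log2 change 3.36, adjusted p = 0.00431). Irf7, the transcription factor that amplifies type I interferon, was at 7.15 and 5.39 CPM against 20.5, 36.4, 38.6 and 24.4 CPM (log2 change 2.26), and Stat2 at 20.3 and 30.3 CPM against 75.0, 67.3, 47.6 and 80.3 CPM (log2 change 1.41). Without both myelin-rich libraries these 3 had changes of 3.20, 2.38 and 1.17 that were not called (adjusted p = 0.058, 0.0553 and 0.179). The number of genes called fell from 11 to 1 without P12 replicate 1, to 3 without the summed P12 sample and to 5 without P310 replicate 3.

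Among the GTPases, 6 of 18 genes rose, all 18 had a positive log2 change (median 1.76) and 5 held. Gvin1, a very large interferon-inducible GTPase, was measured at 33.4 and 26.2 CPM at P12 and at 178, 239, 224 and 219 CPM at P310 (log2 change 2.85, SE 0.23, adjusted p = 2.42e-05). It shares reads with a near-identical neighbouring gene model, since the deposited counts include reads that map to several places. The same holds for the paralogs Tgtp1 and Tgtp2, whose products are T-cell-specific GTPases that attack vacuoles of intracellular parasites. Tgtp1 was at 2.92 and 2.40 CPM against 22.6, 26.2, 28.6 and 19.1 CPM (log2 change 3.18), and Tgtp2 at 3.67 and 2.16 CPM against 26.8, 52.3, 42.3 and 28.4 CPM (log2 change 3.70). Iigp1, of the same class, was at 2.30 and 3.48 CPM against 20.7, 22.4, 23.5 and 23.7 CPM (log2 change 2.95). Gbp4 rose and held (log2 change 1.84), and Gbp3 rose (1.16) and lost its call. The list had 3 calls without P12 replicate 1, where Iigp1 had an adjusted p of 0.0514, and it had 10 calls without P310 replicate 2.

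In MHC class I presentation 10 of 22 genes rose and 7 held, with a median log2 change of 1.42. H2-K1 (ENSMUSG00000061232, chromosome 17, 33996017 to 34000333), a classical class I heavy chain, was measured at 52.7 and 52.6 CPM at P12 and at 253, 330, 366 and 271 CPM at P310 (log2 change 2.53, SE 0.25, adjusted p = 7.18e-05). The nonclassical H2-Q6 was at 3.30 and 4.58 CPM against 50.5, 72.6, 76.8 and 70.9 CPM (log2 change 4.09, SE 0.37, adjusted p = 3.3e-05), and H2-Q4 at 21.6 and 23.4 CPM against 87.6, 138, 133 and 113 CPM (2.39). Class I genes are near-identical in part, so that their counts share reads. The light chain gene B2m, which has no such copy among them, was at 80.5 and 63.3 CPM against 224, 231, 326 and 181 CPM (log2 change 1.74, adjusted p = 0.00343). Nlrc5 (chromosome 8, 94434356 to 94527272), the transactivator of class I genes, was at 2.36 and 2.82 CPM against 17.4, 41.3, 35.3 and 52.4 CPM (log2 change 3.81, SE 0.52, adjusted p = 8.31e-04). H2-D1 and H2-T24 also held, while H2-Q7, H2-T23 and the peptide transporter gene Tap2 lost their calls. The list had 6 calls without P12 replicate 1. At P80 the mean levels were 212 ± 23.6 CPM for H2-K1, 221 ± 4.53 CPM for Gvin1 and 26.6 ± 3.85 CPM for Nlrc5 (SD, n = 3), all above both P12 samples.

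The 4 MHC class II genes called of 9, H2-Ab1, H2-Eb1, H2-Aa and the invariant chain gene Cd74, are expressed by professional antigen-presenting cells. H2-Ab1 was at 3.48 and 2.95 CPM against 22.96, 29.5, 20.9 and 14.5 CPM (log2 change 2.77, adjusted p = 0.00448), and Cd74 at 9.39 and 9.80 CPM against 68.8, 105, 35.8 and 32.2 CPM (2.65). None of the 4 held, none was called without P12 replicate 1, and 1 was called without the summed P12 sample. Beside these groups, 0 of 18 microglia markers were called, and they summed to 1321 and 1391 CPM at P12 and to 450 to 1786 CPM at P310. Of 17 tested markers of border macrophages and leukocytes 0 were called, and their sums were 98.8 and 93.2 CPM at P12 and 103 to 174 CPM at P310. Of the 19 in the list, 8 were at 0 in at least 1 P310 sample (S100a8, Cd3e, Cd3g, Cd4, Ptprcap, Cd79a, Nkg7 and Plac8) and 3 in at least 1 P12 sample. The part of these cells in the immune genes was not tested.

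Promoter sequences of the rising immune genes are shown because several share 1 motif. The search covered 250 bases before the start of each gene in a RefSeq table of GRCm38.p6, on both strands. The motif, GAAA followed by 2 bases of any kind and GAAA again, is the core of the element bound by interferon-activated factors, and it was found in 3.04% of all 27025 promoters. Of the 27 called genes of the 3 lists, 17 had a promoter in the table and 8 of these (47.1%) held the motif: B2m, Gbp3, Stat2, Tgtp1, Tgtp2, H2-T23, Ifit3 and Ifit1. A match describes the letters and shows no binding. The lists were chosen for the interferon response and class I presentation, and no share was taken for members that were not called. The share therefore does not bear on the change with age. The first pair of sequences belongs to the paralogs with shared reads and the other to the class I light chain, each 5′ to 3′ on the gene's strand, with the match in capitals.
Tgtp1, chr11:48992247-48992496, minus strand: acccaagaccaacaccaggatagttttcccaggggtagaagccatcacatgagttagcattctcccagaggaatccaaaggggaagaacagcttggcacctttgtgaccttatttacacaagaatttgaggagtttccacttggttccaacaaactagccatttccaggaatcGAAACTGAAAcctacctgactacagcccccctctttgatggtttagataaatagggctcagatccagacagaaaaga
Tgtp2, chr11:49064213-49064462, minus strand: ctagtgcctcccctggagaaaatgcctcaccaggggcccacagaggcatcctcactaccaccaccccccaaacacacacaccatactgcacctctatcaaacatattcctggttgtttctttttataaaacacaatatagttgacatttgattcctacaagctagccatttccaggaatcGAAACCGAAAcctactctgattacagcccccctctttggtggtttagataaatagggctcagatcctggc
B2m, chr2:122147437-122147686, plus strand: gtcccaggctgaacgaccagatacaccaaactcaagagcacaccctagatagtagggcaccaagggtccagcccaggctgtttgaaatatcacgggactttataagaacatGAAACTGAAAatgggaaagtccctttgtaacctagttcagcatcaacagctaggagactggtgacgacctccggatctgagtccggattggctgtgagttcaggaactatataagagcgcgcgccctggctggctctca

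**Figure D4:**
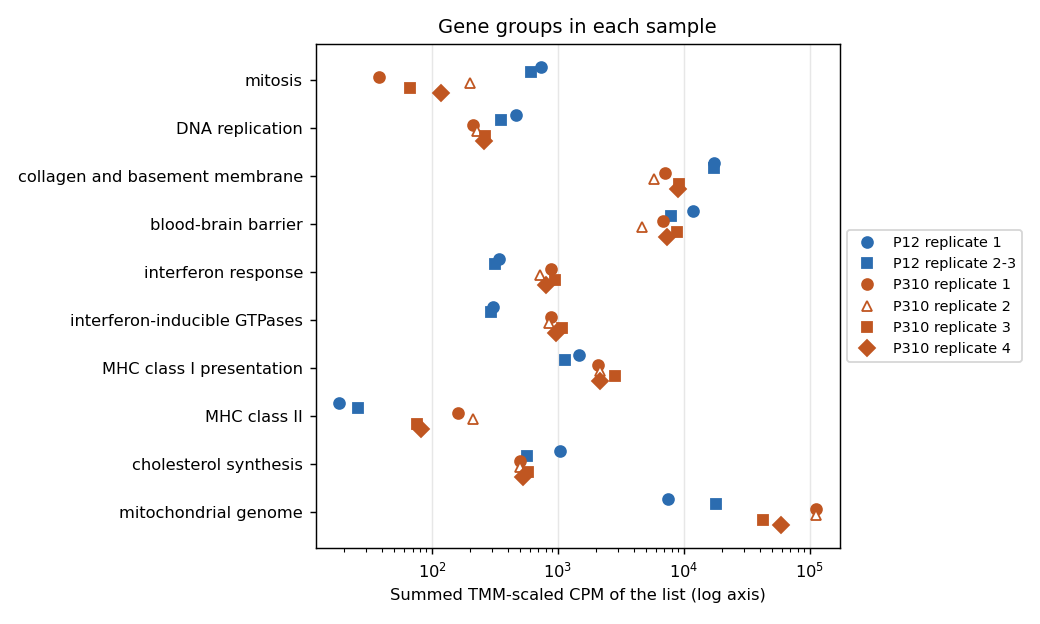
Summed CPM of each of 10 gene groups (vertical) in each P12 and P310 sample, on a log scale (horizontal), with 1 symbol per sample. The interferon response is higher in all P310 samples (715 to 947 CPM) than in both P12 samples (338 and 319 CPM), and mitosis genes are lower (37.6 to 200 against 731 and 606 CPM). The highest P310 sum of mitosis genes, 200 CPM, is that of the myelin-rich P310 replicate 2. The gene Anln is in both the mitosis and the myelin list, and its part in this sum was not tested. Of the mitosis genes with sample values in the text, Top2a (2.42 CPM) and Tpx2 (0.330 CPM) had their lowest P310 values in that library. Mki67 was at 1.87 CPM there and was highest in P310 replicate 4 (25.8 CPM), and Bub1 was at 0 in all P310 samples.

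Most genes of mitosis were lower at P310, while few of DNA replication passed the test. Mitosis genes peak in G2 and M phase and serve the spindle, the kinetochore and cytokinesis. Of 28 in the list 17 fell and 0 rose, against 1.79% of all genes lower. In 27 of 28 the P310 samples all lay below both P12 samples, against 11.6% of all genes tested. The median log2 change was -3.46 (-3.23 without both myelin-rich libraries), and 6 held: Top2a, Bub1, Tpx2, Bub1b, Knl1 and Cenpf. Top2a (ENSMUSG00000020914, chromosome 11, 98992943 to 99024189), the topoisomerase that untangles chromosomes before division, was measured at 68.5 and 64.8 CPM at P12 and at 3.96, 2.42, 3.92 and 6.03 CPM at P310 (log2 change -4.02, SE 0.35, adjusted p = 2.82e-05). The spindle checkpoint kinase gene Bub1 was at 6.66 and 4.26 CPM against 0 in all 4 P310 samples, at least 72.2-fold lower with a limit of 3 counts over the group (adjusted p = 7e-04). Mki67, the usual marker of cycling cells, was at 197 and 177 CPM against 0.396, 1.87, 6.42 and 25.8 CPM (log2 change -4.41, SE 0.99) and missed the threshold (adjusted p = 0.0541). Its P310 values spread over a wide range, and without P310 replicate 4 it was called (log2 change -5.95, adjusted p = 0.0012), as it was without P310 replicate 1 (-4.03, adjusted p = 0.0297). Of the 28 genes 5 were called without P12 replicate 1.

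Of 29 genes of DNA replication 3 fell (median log2 change -0.85) and 1 held. Pole, the catalytic subunit of the leading-strand polymerase, was at 18.1 and 11.7 CPM against 0.660, 0.440, 0.802 and 2.21 CPM (log2 change -3.81, adjusted p = 8.31e-04). Rrm2, a ribonucleotide reductase subunit, was at 9.14 and 8.40 CPM against 0, 0, 0 and 1.19 CPM (log2 change -4.69), and the replication initiation gene Mcm10 at 4.67 and 2.88 CPM against 0, 0.220, 0.0891 and 0.680 CPM (-3.79). Both lost their calls without both libraries (adjusted p = 0.0931 and 0.254). The call of Rrm2 also ended without either P12 sample (adjusted p = 0.149 and 0.069) or P310 replicate 1 or 3 (0.0516 and 0.0563), and that of Mcm10 without any 1 of P12 replicate 1, the P12 sum and P310 replicates 1, 2 and 3 (adjusted p = 0.0596 to 0.278). Of 11 cyclin D and CDK inhibitor genes tested 1 fell, Cdkn2c (11.1 and 7.70 against 0.924, 0.770, 1.60 and 0.765 CPM, log2 change -3.19), which did not hold (adjusted p = 0.116) and was not called without P12 replicate 1 (0.101). The senescence-linked Cdkn2a was at 0.249 and 0.212 CPM at P12 and at 0 in all 4 P310 samples, too low to be tested.

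Clustered histone genes, a family taken by symbol after its values were seen, supply the histones made during DNA replication. They were 66 of the 21170 genes tested, and 1.79% of all genes tested were called lower. Of 66 tested 54 fell and 26 held, and these 26 were 17.3% of the 150 falls that held. The median log2 change was -2.95 (-2.26 without both libraries), and the summed level was 1507 and 985 CPM at P12 and 309, 236, 421 and 304 CPM at P310. Hist1h2af was measured at 33.0 and 19.9 CPM against 1.58, 0.660, 1.16 and 1.53 CPM (log2 change -4.41, SE 0.36, adjusted p = 2.42e-05), and Hist1h3b at 18.2 and 10.8 CPM against 0.132, 0.110, 0.713 and 1.36 CPM (-4.52). These genes are near-identical and share reads, so that they are not independent. Of the falls that held 10 were annotated as miRNA genes, of which 8 lie inside a clustered histone gene (Gm44297 in Hist1h2af, for example) and 1, Mir675, inside H19, so that reads of the host are counted for them too.

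Promoters of 2 mitosis genes that held are shown, Top2a with both motifs searched and Bub1 with CCAAT alone. CCAAT was searched as the box bound by the NF-Y complex and TTTGAA as the core of the cell cycle homology region, both on either strand of the same 250 bases. CCAAT was found in 34.5% of all 27025 promoters and in 11 of the 13 falling mitosis genes (84.6%) that had a promoter in the table, of 17. It was also found in 10 of the 17 rising immune genes with a promoter (58.8%). TTTGAA was found in 16.3% of all and in 5 of 13 (38.5%): Ube2c, Cdc20, Ccnb2, Cdk1 and Top2a. Here too no share was taken for list members that were not called, so that the shares do not bear on the change with age. Capitals mark the matches to either motif, of which Top2a has 8 and Bub1 has 2.
Top2a, chr11:99024190-99024439, minus strand: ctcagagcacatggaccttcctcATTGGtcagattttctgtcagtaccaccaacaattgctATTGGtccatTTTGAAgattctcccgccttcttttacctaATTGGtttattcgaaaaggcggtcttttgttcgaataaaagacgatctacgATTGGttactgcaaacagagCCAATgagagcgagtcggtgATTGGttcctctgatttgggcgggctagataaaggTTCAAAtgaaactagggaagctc
Bub1, chr2:127831860-127832109, minus strand: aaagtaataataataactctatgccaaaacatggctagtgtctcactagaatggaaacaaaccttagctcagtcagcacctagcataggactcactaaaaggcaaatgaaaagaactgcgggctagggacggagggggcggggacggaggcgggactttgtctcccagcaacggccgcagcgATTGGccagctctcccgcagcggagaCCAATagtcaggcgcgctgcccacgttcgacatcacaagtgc

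Among markers of the OPC lineage 4 proteoglycan genes fell, while Sox10 and Olig2 did not pass the test. Over all genes tested 1.79% were called lower. Of 25 OPC identity genes 4 fell, 0 rose and all 4 held, with a median log2 change of -0.81 (-1.41 without both myelin-rich libraries). Ptprz1 (ENSMUSG00000068748, chromosome 6, 22875502 to 23052916), a receptor phosphatase whose ectodomain is a chondroitin sulphate proteoglycan, was measured at 245 and 313 CPM at P12 and at 72.9, 30.5, 45.4 and 31.7 CPM at P310 (log2 change -2.63, SE 0.30, adjusted p = 2.4e-04). Neurocan (Ncan) was at 234 and 310 CPM against 69.3, 43.9, 33.4 and 23.2 CPM (log2 change -2.68), and versican (Vcan) at 23.7 and 44.8 CPM against 12.1, 7.70, 9.98 and 10.8 CPM (-1.76). Brevican (Bcan) was at 193 and 435 CPM against 115, 111, 92.5 and 65.8 CPM (-1.71). These 4 belong to the extracellular matrix of the brain, and astrocytes also express some of them. Without the summed P12 sample 2 of the 25 were called, and Vcan had a log2 change of -1.23 (adjusted p = 0.105). Sox10, which drives the oligodendrocyte program, was at 45.7 and 16.3 CPM against 9.90, 58.1, 1.52 and 1.02 CPM (log2 change -0.81, adjusted p = 0.885), with its highest value in the myelin-rich P310 replicate 2. Olig2 had a log2 change of -1.86 (adjusted p = 0.562), -3.85 without both myelin-rich libraries (adjusted p = 0.101) and -3.67 without P310 replicate 2 (0.032). Olig1, named after its values were seen, was at 51.8 and 28.2 CPM against 0.924, 63.5, 3.57 and 2.55 CPM and was not called in the fit of all samples (adjusted p = 0.816), while without both libraries it was called lower (log2 change -3.55, adjusted p = 0.0138).

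Committed precursors and myelin gave almost no calls. Of 16 genes of committed precursors Vcan alone fell (0 without the summed P12 sample and 2 genes without P310 replicate 2), and of 26 myelin genes 0 were called (median log2 change 0.06, 0.27 without both libraries). The change of Mbp was 2.50 with an SE of 2.62 (adjusted p = 0.819). At this spread a change in myelin genes was not detectable.

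Some markers of astrocytes, immature neurons and radial glia also fell, beside 1.79% of all genes tested. All 16 astrocyte genes had a negative log2 change (median -1.25), 6 fell and 3 held. Aqp4, the water channel of astrocyte endfeet, was measured at 233 and 229 CPM at P12 and at 69.4, 35.2, 64.5 and 43.1 CPM at P310 (log2 change -2.12, adjusted p = 8.31e-04), and the gap junction gene Gja1 at 326 and 366 CPM against 70.9, 28.7, 107 and 97.3 CPM (-2.18). Slc1a3, the glutamate transporter GLAST, had a log2 change of -1.84 and lost its call (-1.88, adjusted p = 0.101), as it did without P12 replicate 1 (0.0705) or the summed P12 sample (0.0624). Without P310 replicate 1, 10 of the 16 were called, and without either P12 sample 3. Of 20 immature neuron genes 6 fell and 5 held (median -1.15). Sox4, a transcription factor of differentiating neurons and of early lineage cells, was at 149 and 111 CPM against 15.7, 22.7, 16.8 and 23.03 CPM (log2 change -2.73, SE 0.21, adjusted p = 2.42e-05), Sox11 at 40.5 and 49.1 CPM against 9.50, 6.27, 4.37 and 2.89 CPM (-2.97) and doublecortin (Dcx) at 16.8 and 29.2 CPM against 4.09, 6.38, 5.88 and 3.74 CPM (-2.20). Dlx1 and Nhlh1 held as well. Without the summed P12 sample 3 of the 20 were called. Of 16 radial glia and progenitor genes 2 fell and both held: Neurog2, at 0.622 and 0.679 CPM against 0.132, 0.110, 0 and 0 CPM, and tenascin C (Tnc), at 46.7 and 65.9 CPM against 16.9, 2.97, 6.33 and 20.8 CPM (log2 change -2.26, adjusted p = 0.0405). Neither of these was called without 1 of the P12 samples (adjusted p = 0.0644 to 0.182), and Tnc was not called without P310 replicate 1 (0.0502) or 3 (0.0934). Mature neuron genes gave 0 calls of 16, with a median of 0.75 in all samples and of -0.86 without both libraries.

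Of 38 genes of fibrillar collagens and the basement membrane, 15 were lower at P310, against 1.79% of all genes tested. These proteins form the sheet under the endothelium and the matrix around vessels, laid down while vessels grow. None rose and 10 of the 15 falls held, with a median log2 change of -1.16 (-1.22 without both libraries), and the summed level was 17455 and 17241 CPM at P12 and 7046, 5792, 9174 and 9046 CPM at P310. Col3a1 (ENSMUSG00000026043, chromosome 1, 45311538 to 45349706), a fibrillar collagen, was measured at 376 and 558 CPM at P12 and at 70.1, 32.3, 56.3 and 54.4 CPM at P310 (log2 change -3.13, SE 0.28, adjusted p = 2.82e-05). Sparc, a collagen-binding protein, was at 1597 and 1167 CPM against 339, 194, 325 and 210 CPM (-2.37), and Col4a2, of the basement membrane, at 1988 and 1574 CPM against 382, 419, 487 and 403 CPM (-2.08). Col4a1, Nid1, Nid2, Lamc1, Col5a2, Col1a1 and Col1a2 also held. Col1a1 was measured at 297 and 597 CPM against 65.2, 36.4, 46.3 and 184 CPM (log2 change -2.43, adjusted p = 0.0355) and was not called without either P12 sample (adjusted p = 0.0765 and 0.213) or P310 replicate 1 (0.0877) or 3 (0.0796). Col1a2 had an adjusted p of 0.132 without the summed P12 sample. In the fit without P12 replicate 1, 9 genes of the list were called. All 14 fibroblast markers, 5 of which are also in this list, had a negative log2 change, 4 fell and 3 held, and their sums did not overlap between the ages. Of the 4 calls 2 were made without P12 replicate 1, 1 without the summed P12 sample and 2 without P310 replicate 3. The part of fibroblast content in the collagen genes was not tested.

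Among genes of endothelial identity and vessel growth, calls went in both directions. Of 16 endothelial genes Flt1 rose and Kdr fell, with a list median of 0.26. Kdr, the signalling VEGF receptor, was at 1113 and 769 CPM at P12 and at 359, 223, 326 and 290 CPM at P310 (log2 change -1.65, SE 0.25, adjusted p = 0.00211), and it was not called without both libraries (-1.23, adjusted p = 0.0522) or without P12 replicate 1 (-1.37, 0.0624). Flt1, the decoy VEGF receptor, was at 1227 and 870 CPM against 2484, 1722, 2964 and 2782 CPM (log2 change 1.25, SE 0.27, adjusted p = 0.0218). Its call held (1.67, adjusted p = 0.0128) but ended without P12 replicate 1 (0.0789), the summed P12 sample (0.186), P310 replicate 3 (0.0507) or P310 replicate 4 (0.0514). Of 26 vessel growth genes 4 fell and Flt1 rose. Besides Aplnr, its ligand apelin (Apln), made by tip cells of growing vessels, was at 127 and 54.7 CPM against 0.792, 12.8, 2.67 and 1.19 CPM (log2 change -4.38, SE 0.82, adjusted p = 0.0143) and held, although not without P12 replicate 1 alone (-3.66, adjusted p = 0.121) or P310 replicate 3 (0.0506). Angpt2 fell (-1.69) and did not hold. The list had 1 lower call without P12 replicate 1 and 2 without P310 replicate 3.

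Of 26 genes of the blood-brain barrier 8 fell, 0 rose and 6 held, while the list median was -0.35 (0.13 without both libraries). Among all genes tested 1.79% were called lower. Of the 8 barrier genes that fell, 5 encode transporters of the solute carrier kind. Slc16a1 (ENSMUSG00000032902, chromosome 3, 104638668 to 104658462), the monocarboxylate transporter that carries ketone bodies and lactate, was measured at 1447 and 873 CPM at P12 and at 59.0, 40.7, 115 and 79.4 CPM at P310 (log2 change -3.98, SE 0.33, adjusted p = 2.82e-05). At P80 it was at 107 ± 23.2 CPM and at E16 at 18.8 ± 1.56 CPM (SD, n = 3), so that here too the mean was highest at P12. The low endothelial marker sums of the E16 samples, given with Aplnr, limit the reading of the E16 level here too. Mfsd2a, which carries docosahexaenoic acid as a lysolipid, was at 241 and 139 CPM against 37.3, 22.4, 34.2 and 24.2 CPM (-2.69), and the transferrin receptor gene Tfrc, for iron uptake, at 609 and 321 CPM against 91.5, 49.9, 99.8 and 85.9 CPM (-2.51). The amino acid transporter genes Slc7a5 and Slc7a1 fell by 2.01 and 2.02 on the log2 scale and held, as did Apcdd1, a Wnt inhibitor gene, at 799 and 437 CPM against 165, 83.0, 124 and 102 CPM (-2.38). Lrp8 and Slc38a5 lost their calls. Tight junction and glucose transport were not among the calls: Cldn5 had a log2 change of -0.25 (adjusted p = 0.854) and Slc2a1 of 0.23 (adjusted p = 0.862), both chosen after their values were seen. Endothelial markers, as given above, overlapped between P12 and P310.

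**Figure D5:**
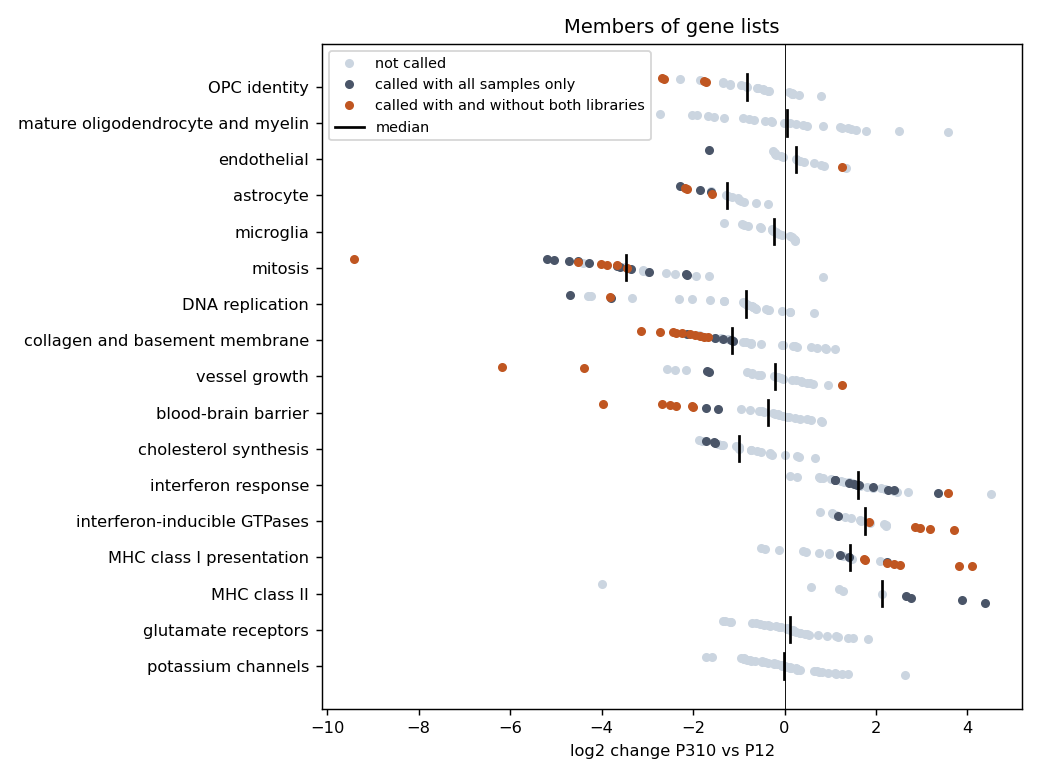
Log2 change from P12 to P310 (horizontal) of each tested member of 17 gene lists (vertical), with members not called, called, and called and held in different colours, and a bar at the list median. The medians of the interferon, GTPase and MHC class I lists lie to the right of 0 (1.60, 1.76 and 1.42), with 3 of the 22 class I members below 0. The median of mitosis lies farthest to the left (-3.46).

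Among genes of fetal growth control 3 of 23 fell and all 3 held, Sox4, Sox11 and H19. H19 (ENSMUSG00000000031, chromosome 7, 142575529 to 142578143), an imprinted noncoding RNA of the embryo, was measured at 32.5 and 33.4 CPM at P12 and at 0.396, 0.110, 0.891 and 2.72 CPM at P310 (log2 change -4.90, SE 0.57, adjusted p = 6.48e-04). Its levels at E16 and P80 were 229 ± 18.0 and 5.78 ± 0.693 CPM (SD, n = 3). Of 22 chromatin genes Ezh1, a Polycomb methyltransferase of nondividing cells, rose (45.3 and 44.2 against 91.5, 59.8, 101 and 107 CPM, log2 change 1.005, adjusted p = 0.044), and it was not called without both libraries (0.0522) or without any 1 sample other than P310 replicate 2 (0.0651 to 0.356). Dnmt3a and Ezh2 were not called in the fit of all samples and were called lower without both libraries.

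In signalling pathways few genes passed, beside 1.79% of all genes tested called lower and 0.713% called higher. Of 30 Wnt pathway genes 2 fell and both held, the feedback inhibitors Apcdd1 and Nkd1, the second at 214 and 163 CPM against 61.5, 98.2, 70.9 and 53.8 CPM (log2 change -1.41, and -1.20 with an adjusted p of 0.112 without P12 replicate 1). Of 20 BMP pathway genes Smad5 fell (112 and 72.6 against 48.3, 36.1, 56.7 and 49.9 CPM, log2 change -0.95, adjusted p = 0.0388). It did not hold (adjusted p = 0.61), and it was called in 2 of the 6 fits without 1 sample. Of 18 Notch pathway genes 0 were called (median 0.04). OPCs sense neuronal activity by ion channels and by receptors for glutamate and GABA. Of 33 axon guidance receptors, 27 sodium and calcium channel genes, 40 potassium channel genes, 33 glutamate receptor genes and 16 GABA receptor genes, 0 were called in the fit of all samples. Their medians were -0.39, 0.03, -0.02, 0.11 and 0.14, and without both libraries -0.56, -0.75, -0.82, -1.12 and -0.81. Without both libraries Ephb2, Efnb3 and Cacna1h were called lower. The summed levels of sodium and calcium channels, glutamate receptors and GABA receptors were lowest in P12 replicate 1. That sample also had the lowest sum of mature neuron markers, which was 78.4 and 731 CPM at P12 and 203 to 1174 CPM at P310. The part of neuronal RNA in these lists was not tested.

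Of 23 genes of cholesterol synthesis 3 fell, and none held. Sqle was at 41.1 and 21.5 CPM against 5.54, 6.82, 14.0 and 11.2 CPM (log2 change -1.72) and Hmgcs1 at 183 and 62.6 CPM against 39.5, 58.6, 34.1 and 35.7 CPM (-1.55). Both encode enzymes of the pathway. In both the value of P12 replicate 1 was far above that of the other P12 sample, and without both myelin-rich libraries the changes were -1.04 and -0.77 (adjusted p = 0.371 and 0.304). Without P12 replicate 1 alone 0 of the 23 were called, and without the summed P12 sample 5.

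Outside the interferon lists, inflammation gave 3 rises of 32 genes, of which 1 held. None of the 32 was called without P12 replicate 1 or the summed P12 sample, and 1 was called without P310 replicate 1. The cytokine gene Il1b was at 0.373 and 0.106 CPM against 9.24, 3.19, 4.90 and 12.2 CPM (log2 change 5.04) and the chemokine gene Ccl4 at 0 and 0.0848 CPM against 15.2, 2.97, 0.981 and 0.765 CPM (6.30). Both lost their calls without both libraries (adjusted p = 0.092 and 0.258), and each was at the level of a few counts at P12. Their calls also ended without either P12 sample or P310 replicate 1 (adjusted p = 0.0563 to 0.395), and that of Il1b without P310 replicate 3 (0.0538) or 4 (0.0763).

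Immediate early and clock genes were among the rises. All 23 immediate early genes, which are transcribed within minutes of a stimulus and during tissue dissociation, had a positive log2 change (median 0.99), 3 rose and 1 held. Junb was at 41.1 and 30.0 CPM against 109, 65.0, 122 and 115 CPM (log2 change 1.53, adjusted p = 0.0344), Nr4a1 at 28.9 and 35.3 CPM against 64.7, 88.0, 134 and 208 CPM (1.94) and Nr4a2 at 7.59 and 9.37 CPM against 17.3, 20.5, 29.9 and 58.0 CPM (1.89). Junb held, and without P310 replicate 2 the list had 8 calls, without either P12 sample or P310 replicate 3 it had 0 and without P310 replicate 4 it had 1. Of 19 clock genes Nr1d1, the repressor REV-ERBα, rose (41.8 and 32.5 against 174, 127, 92.6 and 105 CPM, log2 change 1.75, adjusted p = 0.00601) and held. It was not called without P12 replicate 1 (0.0578) or the summed P12 sample (0.0749). Of 15 heat shock genes 0 were called, and Hspa1a (adjusted p = 0.0791 in all samples) was called higher without both libraries (2.89, adjusted p = 0.041). The hour of sampling is not in the labels.

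All 13 protein-coding transcripts of the mitochondrial genome had a positive log2 change (median 2.60), 7 rose and 0 held. Of these, mt-Cytb was at 846 and 1949 CPM at P12 and at 14796, 12260, 5355 and 7350 CPM at P310 (log2 change 2.83, adjusted p = 0.021; 2.24 with an adjusted p of 0.265 without both libraries and 0.299 without P12 replicate 1). Without P12 replicate 1, 0 of the 13 were called, without the summed P12 sample or P310 replicate 1, 2, and without P310 replicate 2, 4. Summed over the 13, the levels were 7509 and 18134 CPM against 111660, 112140, 42866 and 59325 CPM. When the counts of mitochondrial, ribosomal protein and haemoglobin genes were removed before scaling, 155 genes were called higher and 362 lower, among them 141 and 362 of the first calls.

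Genes of the sex chromosomes differed between the samples. Xist, the RNA that coats the inactive X chromosome of female cells, was measured at 294 and 1.21 CPM at P12 and at 644, 424, 543 and 811 CPM at P310 (log2 change 2.04, adjusted p = 0.658). Without both myelin-rich libraries, and so with the summed P12 sample alone, its change was 9.10 (adjusted p = 2.58e-05). The Y-linked Ddx3y was at 17.2 and 49.4 CPM at P12 and at 0, 0, 0.0891 and 0 CPM at P310, and Eif2s3y at 5.16 and 19.9 CPM against 0 in all 4. Both were called lower and held. P12 replicate 1 thus had Xist and Y-linked transcripts side by side, the summed P12 sample had mainly the Y-linked ones, and the P310 samples had Xist and almost none of these 2 Y-linked transcripts. The 2 other Y-linked genes examined had counts at both ages. Uty was at 34.4 and 72.8 CPM at P12 and at 88.0, 108, 43.4 and 49.3 CPM at P310 (log2 change 0.43, adjusted p = 0.831), and Kdm5d at 9.89 and 35.1 CPM against 8.71, 9.24, 7.76 and 13.9 CPM (-1.19, adjusted p = 0.229). In the P310 samples, Xist with almost no Ddx3y or Eif2s3y is the pattern of female samples, while Uty and Kdm5d had counts. Reads that map to several places were counted for each gene and without strand. The counts of Uty and Kdm5d can thus include reads of other genes, which was not tested. The labels do not give the sex, and its part in the calls was not tested. In the second fit the only P12 sample had Xist at 1.21 CPM and Ddx3y at 49.4 CPM. The P310 samples in that fit had Xist at 543 to 811 CPM and almost no Ddx3y. There this difference and age cannot be told apart, which bears on every call said to hold.

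Many calls that held were of genes outside the lists, of which 6 are given here, chosen after their values were seen. How many of all genes tested lie in a list was not counted. The shares at the end of this paragraph therefore describe the make-up of the calls alone. Alpl, the alkaline phosphatase of brain capillaries, was at 25.2 and 33.1 CPM at P12 and at 280, 138, 294 and 225 CPM at P310 (log2 change 3.00, adjusted p = 6.48e-04). The ceruloplasmin gene Cp, a copper-carrying ferroxidase, was at 64.2 and 75.6 CPM against 251, 228, 413 and 367 CPM (2.17). Cbx7, a Polycomb reader protein gene, was at 7.71 and 17.1 CPM against 70.9, 57.6, 73.2 and 80.7 CPM (2.50). Among the falls were elastin (Eln), at 2202 and 3688 CPM against 200.5, 311, 484 and 600 CPM (log2 change -2.88), and Igfbp3, a carrier of insulin-like growth factors, at 231 and 349 CPM against 33.5, 23.9, 50.4 and 38.9 CPM (-2.98). Lmnb1, the lamin B1 gene of the nuclear envelope, was at 107 and 72.3 CPM against 5.54, 11.2, 12.1 and 11.9 CPM (-3.13). Each of these 6 separated the ages without overlap and held. Of the 150 falls that held, 67 (44.7%) were in a list or among the clustered histones, and of the 44 rises 17 (38.6%).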

How the data were processed

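The authors deposited raw counts per gene for each library, made with featureCounts 1.5.0-p1 on an Ensembl release 92 annotation, per the file headers. These headers show that reads overlapping several genes or mapping to several places were counted for each, with a minimum overlap of 10 bases and without strand, so that paralogs and antisense genes share reads. Trim Galore and TopHat2 2.1.1 on GRCm38 are named in the submitters' processing notes. Gene names came from GENCODE M21 (37715 of 37785 genes).

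From the counts, genes were kept with filterByExpr, scaled by TMM and tested with edgeR 4.0.16 (robust quasi-likelihood fit of all 4 ages, 12 samples, R 4.3.3), which was tested on simulated data. SE is the log2 change over the square root of F. Depth was 8669521 to 25810455 counts, and the common biological coefficient of variation was 0.513. Floors cover counting error only. Alternatives were other scalings and filters, DESeq2 1.42.0, limma-voom 3.58.1, a replicate block, and samples left out.

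The members and gene lists were chosen with earlier results of these data known. Named genes were the 8 largest rises and falls among protein-coding calls that held, with at least 10 CPM in the higher group, no overlap and no Y linkage, up to 3 called members of each list (4 for channel, receptor and interferon lists), and a fixed set of lineage, cycle and sex-linked genes. A few genes that this rule selects are not reported here. Genes named beyond this rule were chosen after their values were seen. Promoters were read from a RefSeq table of GRCm38.p6.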

Additional observations from a re-analysis of the deposited data

Results flagged for a closer look

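In 9 of the 118 groups of P310 values examined (named genes and list sums), 1 sample stood far from the other 3 by Dixon's criterion. Chance gives about 1 in 20 groups. In P310 replicate 2 these were Mbp at 39223 CPM (61.4 to 319 in the others), Sox10 at 58.1 CPM (1.02 to 9.90), Apln at 12.8 CPM (0.792 to 2.67), and the summed levels of committed precursors at 8663 CPM (655 to 823), of mature oligodendrocytes and myelin at 68846 CPM (639 to 1517) and of immature neurons at 819 CPM (148 to 241). Ccl4 was at 15.2 CPM in P310 replicate 1 (0.765 to 2.97 in the others), and the sum of MHC class I presentation was 2836 CPM in P310 replicate 3 (2076 to 2173). Rrm2 was at 1.19 CPM in P310 replicate 4 and at 0 in the other 3. Named genes and the list sums that contain them are not independent, so that the share expected by chance is only a rough guide. That P310 replicate 2 is high in myelin genes was known beforehand, and its values for Mbp and the myelin sum restate this.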

How the results depend on the processing

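The count of genes called higher (151) and lower (380) moved to 513 and 772 with no filter on low counts, 476 and 589 with DESeq2, 333 and 581 with limma-voom, 56 and 117 with P12 and P310 samples alone, 392 and 620 with P12 replicates 2 and 3 kept apart, and 59 and 188 without P12 replicate 1 and P310 replicate 2 together. Leaving out 1 sample gave 31 to 248 higher and 127 to 435 lower. Of the calls that held (44 and 150), the counts moved to 82 higher with no filter, 224 and 254 with DESeq2, 324 and 514 with limma-voom, 12 and 16 with 2 ages alone, and 298 and 408 with P12 replicates 2 and 3 apart. Leaving out 1 sample gave 23 to 71 higher and 91 to 175 lower among them. With the replicate number as a block 137 genes were called higher and 255 lower (78 and 223 of the first calls), and 11 and 26 held. The numbers mark different mice, and same-numbered samples deviated together with r = -0.04 (number 1) and 0.22 (number 2). The cause of these differences was not tested. Of the single genes, none of them called, Sox10 changed sign without P12 replicate 1 (0.10; range over single samples left out -2.88 to 0.10) and Mbp with limma-voom (-1.87) and without P310 replicate 2 (-3.50; range -3.50 to 6.42). Of the other values of named genes under an alternative, 1292 kept direction and call, 163 lost and 20 gained a call. Of the list counts 369 stayed within 1.5 times and 163 did not. Where P12 has 1 sample it is assumed to vary like the other ages, and with 2 P12 samples in all, small changes are below what the design resolves.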
